A study of Mus musculus with 28 samples.

Results

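Immune checkpoint and costimulation genes were followed in bulk liver RNA of male and female mice that overexpressed the deacylase SIRT6. The set held 10 genes, taken as the rows of the count table whose Ensembl identifiers carried the symbols Pdcd1, Cd274, Ctla4, Lag3, Havcr2, Tigit, Icos, Cd28, Cd80 and Cd86. These were 10 of the 49585 features in the table, and all 10 were among the 21583 genes with a mean normalized count of at least 0.5 that entered the tests. The study asked how SIRT6 changes hepatic gene expression, and its RNA-seq arm compared transgenic mice (SIRT6-tg) with wild-type (WT) littermates. Its 28 livers formed 4 groups of 7, namely WT and SIRT6-tg males and WT and SIRT6-tg females, each liver from a separate mouse. All groups shared the C57BL/6JOlaHsd strain, an age of 5 to 7 months, standard chow and, per the study's methods, a short fast before the livers were taken. The transgenic mice all descended from 1 transgenic line backcrossed to this strain, and the transgene was not limited to the liver. An effect of SIRT6 cannot be told apart from a feature of that line, and reads of the transgene and of the mouse's own Sirt6 were counted together.

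T cells need a signal through the T-cell receptor together with a costimulatory signal, which CD28 and ICOS deliver when CD80, CD86 or the ICOS ligand on an antigen-presenting cell engages them. Checkpoint receptors such as PD-1 (encoded by Pdcd1), CTLA-4, LAG-3, TIM-3 (Havcr2) and TIGIT restrain T cells and are induced on activated and chronically stimulated cells. PD-L1 (Cd274), the ligand of PD-1, is made by macrophages, dendritic cells, endothelium and hepatocytes and is induced by interferon-γ. The liver holds resident macrophages (Kupffer cells), dendritic cells and many CD8+ T and NK cells, among a large excess of hepatocytes.

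The members lie at a few places of the mouse genome (GRCm38). Cd28, Ctla4 and Icos are neighbours on chromosome 1, with no other protein-coding gene between them (gaps of 114 and 62.1 kb), and Pdcd1 is on chromosome 1 at 94038305 to 94052553 on the minus strand. Cd274 (chromosome 19, 29367455 to 29388095) lies 22.8 kb from Pdcd1lg2, which encodes the other PD-1 ligand, and Lag3 lies 16.1 kb from Cd4 on chromosome 6. An annotated antisense RNA shares 511 exon bases with Cd274, and since the strand setting of the counting is not given in the sources used here, reads of the pair cannot be told apart. Promoter windows of 300 bases (250 before and 50 after the start site) from RefSeq on GRCm38.p6 were matched for 6 members, Pdcd1, Cd274, Ctla4, Havcr2, Tigit and Cd80. The 4 windows printed here are those that held an SP1 (GGGCGG) or AP-1 (TGANTCA) motif on either strand, shown in capitals, and they let the PD-1 receptor and its ligand, which fell together in males, be read side by side.
Pdcd1 promoter, chr1:94052504-94052803, minus strand: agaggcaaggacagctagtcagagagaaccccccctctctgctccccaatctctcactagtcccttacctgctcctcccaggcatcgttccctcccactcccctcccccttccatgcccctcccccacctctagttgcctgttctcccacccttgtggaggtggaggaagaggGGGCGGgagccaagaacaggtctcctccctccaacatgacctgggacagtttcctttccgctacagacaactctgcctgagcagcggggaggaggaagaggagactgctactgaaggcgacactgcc
Cd274 promoter, chr19:29367188-29367487, plus strand: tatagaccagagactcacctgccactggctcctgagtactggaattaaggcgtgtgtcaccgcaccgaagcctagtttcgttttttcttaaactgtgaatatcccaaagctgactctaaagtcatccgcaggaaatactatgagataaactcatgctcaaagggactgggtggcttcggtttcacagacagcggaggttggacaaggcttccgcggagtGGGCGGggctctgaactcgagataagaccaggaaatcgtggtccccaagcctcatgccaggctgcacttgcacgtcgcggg
Havcr2 promoter, chr11:46454681-46454980, plus strand: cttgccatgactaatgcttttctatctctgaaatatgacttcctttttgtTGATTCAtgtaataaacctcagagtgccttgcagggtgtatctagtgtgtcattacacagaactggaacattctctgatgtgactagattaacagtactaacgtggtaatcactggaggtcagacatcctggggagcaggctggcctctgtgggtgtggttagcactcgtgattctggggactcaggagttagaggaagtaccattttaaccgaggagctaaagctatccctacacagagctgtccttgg
Cd80 promoter, chr16:38458683-38458982, plus strand: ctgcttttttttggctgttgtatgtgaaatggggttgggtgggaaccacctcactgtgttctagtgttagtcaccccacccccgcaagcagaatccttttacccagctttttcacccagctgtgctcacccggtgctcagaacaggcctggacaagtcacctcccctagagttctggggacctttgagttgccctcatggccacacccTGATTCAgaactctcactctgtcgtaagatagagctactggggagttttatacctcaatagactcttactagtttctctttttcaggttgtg
The SP1 letters began 77 bases before the start site in Pdcd1 and 31 bases before it in Cd274, and 35.7% of all 32851 promoter windows of this length held them. The AP-1 letters began 200 bases before the start site in Havcr2 and 42 bases before it in Cd80, against 7.81% of all windows. No member window matched the core of an interferon-stimulated response element, which is GAAA repeated after any 2 bases (3.44% of all windows), or an NF-kB site, here GGGA, any base and TTTCC (0.411%). The matches are descriptions of these letters only.

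Library totals ran from 18758863 to 35393069 counted reads. Values are given as normalized counts, that is, reads scaled to a common library of 26562738 reads after TMM correction for composition. Sirt6 itself read 72.6 ± 13.6 normalized counts in male WT and 7461 ± 1467 in male SIRT6-tg mice, against 76.5 ± 41.1 and 802 ± 331 in females (mean ± SD, n = 7 each). Alb, the hepatocyte gene for albumin, read 2154621 ± 339729 normalized counts in male WT livers, and the leukocyte gene Ptprc read 1026 ± 271. A total of 7 of the 28 libraries stood apart from their groups on the first component of the within-group variation (23.9% of that variation). They were male WT replicate 6, male SIRT6-tg replicate 7, female WT replicates 1, 2 and 4 and female SIRT6-tg replicates 1 and 6, and results that rest on them are given with and without them. They were set apart by a score above 20, a cut on 1 side only, and their lowest score was 29.4. Libraries at the other end were kept, such as female WT replicate 7 (−36.3), male SIRT6-tg replicate 3 (−35.4) and male WT replicate 5 (−34.2). Leaving out the 7 thus removes 1 end of a range of scores.

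All 10 members were lower in male SIRT6-tg than in male WT livers at an adjusted p below 0.05 (edgeR quasi-likelihood F-test, Benjamini-Hochberg over all 21583 genes). Among all genes tested 11.0% were called lower in this comparison. The median log2 fold change of the 10 members was −2.20, beside 0.06 for all genes, and single members ranged from −4.93 for Tigit to −0.69 for Icos. For 6 members (Pdcd1, Cd274, Ctla4, Havcr2, Tigit and Cd86) the ranges of the 7 SIRT6-tg and the 7 WT males did not overlap, a pattern that 4.37% of all genes showed in this direction. In bulk liver, fewer cells of a type and less RNA per cell cannot be told apart.

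**Figure D1:**
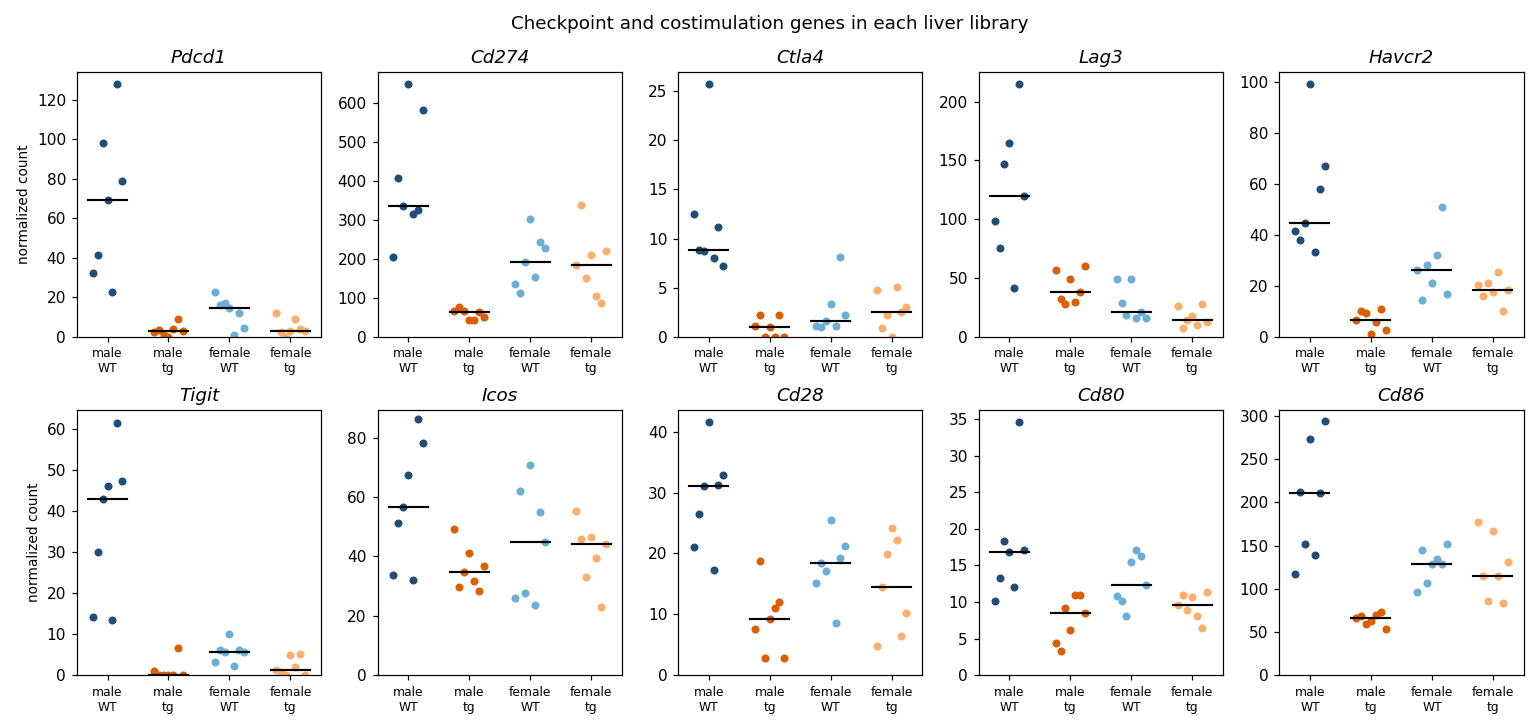
Normalized counts (vertical axis, linear, starting at 0, scaled per gene) of the 10 members in each of the 28 libraries. Each point is 1 liver, the 4 columns are the groups of 7, and the black line is the median. Male WT livers reach the highest value of every gene, such as 128 for Pdcd1, and most male SIRT6-tg points lie near the axis for Pdcd1, Ctla4 and Tigit.

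Of the inhibitory receptors, Tigit, Pdcd1, Ctla4 and Havcr2 had larger male changes than the other 6 members. Pdcd1, the receptor PD-1, lay between 22.7 and 128 (median 69.1) normalized counts in the 7 male WT livers and between 0 and 8.77 (median 2.82) in male SIRT6-tg livers. Every SIRT6-tg male was below every WT male, the fitted fold was 21 (log2 fold change −4.39 ± 0.54 SE, adjusted p = 7.14e-07), and the raw totals behind it were 540 reads in WT and 20 in SIRT6-tg. Tigit, a receptor for the poliovirus receptor Pvr and related nectins, lay between 13.3 and 61.6 (median 43.0) in male WT livers. It had no read in 5 of the 7 male SIRT6-tg livers, 1 read in another, and 6.58 normalized counts in replicate 6. The groups did not overlap, with 295 reads in all in WT and 7 in SIRT6-tg (log2 fold change −4.93 ± 0.61 SE, adjusted p = 5.35e-07). A library with no read of a gene can still hold a level of up to 3 reads, counting error only.

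Havcr2 encodes TIM-3, found on exhausted T cells and also on dendritic cells and macrophages. It lay between 33.3 and 99.2 (median 44.6) normalized counts in male WT and between 1.03 and 11.0 (median 6.55) in male SIRT6-tg livers, with no overlap and a log2 fold change of −3.0 ± 0.33 SE (adjusted p = 1.18e-07). Ctla4, whose product competes with CD28 for CD80 and CD86, was the least abundant of the 10 members in counts, at 7.24 to 25.7 (median 8.85) in male WT and 0 to 2.21 (median 1.03) in male SIRT6-tg livers. These values rest on 93 and 6 reads over 7 livers each, and the groups were apart (log2 fold change −3.50 ± 0.58 SE, adjusted p = 3.73e-05). Lag3, which binds MHC class II, lay between 41.3 and 215 (median 119.7) in male WT and between 27.5 and 60.6 (median 38.4) in male SIRT6-tg livers. The Lag3 groups overlapped, with 4 of 7 SIRT6-tg males below every WT male, and the log2 fold change was −1.56 ± 0.31 SE (adjusted p = 4.21e-04).

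The ligands made by antigen-presenting and other liver cells also fell in males. Cd274, the PD-1 ligand PD-L1, lay between 205 and 650.2 (median 336) normalized counts in male WT and between 43.8 and 77.4 (median 64.7) in male SIRT6-tg livers, so the highest SIRT6-tg male was below the lowest WT male. Its log2 fold change was −2.76 ± 0.28 SE, a 6.78-fold lower level (adjusted p = 6.49e-08). Cd86, a ligand of CD28 and CTLA-4, lay between 117 and 295 (median 210.4) in WT and between 53.5 and 73.4 (median 65.5) in SIRT6-tg males, again without overlap (log2 fold change −1.63 ± 0.19 SE, adjusted p = 2.49e-07). The SD of Cd86 over the 7 male SIRT6-tg livers was 6.83, against 67.8 over the male WT livers. Cd80, the other ligand of CD28 and CTLA-4, lay lower, between 10.2 and 34.7 (median 16.8) in WT and between 3.32 and 11.0 (median 8.45) in SIRT6-tg males. Its groups overlapped, 5 of 7 SIRT6-tg males being below every WT male (log2 fold change −1.17 ± 0.28 SE, adjusted p = 0.00248).

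The costimulatory receptors Cd28 and Icos were lower as well, and Icos had the smallest change of the 10 members. Cd28 lay between 17.3 and 41.6 (median 31.1) normalized counts in male WT and between 2.75 and 18.8 (median 9.28) in male SIRT6-tg livers, and 6 of 7 SIRT6-tg males were below every WT male (log2 fold change −1.64 ± 0.34 SE, adjusted p = 5.83e-04). Icos lay between 32.0 and 86.2 (median 56.6) in WT and between 28.5 and 49.1 (median 34.9) in SIRT6-tg males. Only 3 of 7 SIRT6-tg males were below every WT male for Icos, and its log2 fold change of −0.69 ± 0.25 SE stood close to the threshold (adjusted p = 0.0457). The Icos call was lost when any of 14 single libraries was left out (adjusted p up to 0.0970), these being male WT replicates 2, 3, 4, 6 and 7, male SIRT6-tg replicates 2 to 7, female WT replicate 7 and female SIRT6-tg replicates 2 and 5. The other 9 members stayed below 0.05 without any 1 library and without the 7 libraries that stood apart.

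**Figure D2:**
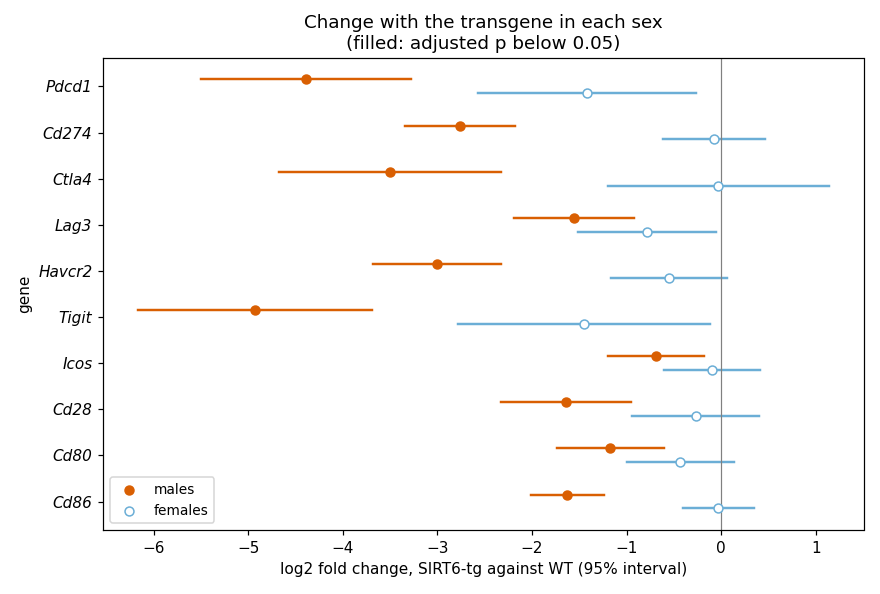
Fitted log2 fold change of SIRT6-tg against WT (horizontal axis) for the 10 members, with orange for males and blue for females, lines for the 95% interval and filled points for an adjusted p below 0.05. All 10 male points are filled and lie below 0, from −4.93 to −0.69, and no female point is filled.

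In female livers none of the 10 members was called at an adjusted p below 0.05 by edgeR or by DESeq2, in a comparison where edgeR called 0.0278% of all genes. All 10 fitted changes were below 0 (median −0.35, beside 0.003 for all genes). An unadjusted p below 0.05 was reached by Pdcd1, Lag3 and Tigit, and by 5.62% of all genes. Pdcd1 lay between 1.07 and 22.8 (median 14.4) normalized counts in female WT and 0 to 12 (median 3.08) in female SIRT6-tg livers, with overlapping groups (log2 fold change −1.42 ± 0.56 SE, adjusted p = 0.697). Tigit lay between 2.14 and 9.98 (median 5.68) and 0 to 5.12 (median 1.20), and 5 of 7 SIRT6-tg females were below every WT female (log2 fold change −1.45 ± 0.65 SE, adjusted p = 0.812). Lag3 lay between 15.6 and 48.9 (median 21.4) and between 7.63 and 28.2 (median 14.4), with 4 of 7 below (log2 fold change −0.79 ± 0.36 SE, adjusted p = 0.827).

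The female intervals were of unequal width. For Cd274 the 95% interval of the log2 fold change was −0.61 to 0.46 and for Cd86 it was −0.40 to 0.35, so neither included a fall of the male size. Female Cd274 lay between 113 and 303 (median 193) normalized counts in WT and between 85.8 and 338 (median 185) in SIRT6-tg livers, and female Cd86 between 96.7 and 152 (median 129) and between 83.2 and 177 (median 114). Ctla4 was near 2.64 normalized counts in both female groups, and its interval was wide (−1.20 to 1.14). The remaining female log2 fold changes were −0.55 for Havcr2, −0.43 for Cd80, −0.27 for Cd28 and −0.10 for Icos.

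Males and females differed in the effect of the transgene for 6 members, each lower in males (edgeR interaction term, adjusted p below 0.05), where 3.84% of all genes were called in that direction. The difference of the log2 fold changes, male minus female, was −2.69 ± 0.38 SE for Cd274 (adjusted p = 1.42e-04), −1.60 ± 0.26 SE for Cd86 (adjusted p = 4.71e-04) and −2.45 ± 0.45 SE for Havcr2 (adjusted p = 0.00152). It was −3.47 ± 0.86 SE for Ctla4 (adjusted p = 0.0134), −2.97 ± 0.84 SE for Pdcd1 (adjusted p = 0.0330) and −3.48 ± 1.02 SE for Tigit (adjusted p = 0.0404). The calls of Cd274, Cd86 and Havcr2 held without any 1 library and without the 7 libraries that stood apart, whereas those of Pdcd1, Ctla4 and Tigit were lost without those 7 (adjusted p = 0.130, 0.115 and 0.187), at differences of −2.90, −2.90 and −3.12 over the remaining 21 libraries. The Pdcd1 call was also lost without male SIRT6-tg replicate 1, 3 or 4 or female SIRT6-tg replicate 1 or 5 (adjusted p 0.0508 to 0.0846). That of Tigit was lost without any of 17 libraries (adjusted p 0.0504 to 0.141), namely male WT replicates 3, 4, 6 and 7, male SIRT6-tg replicates 1 to 5 and 7, female WT replicates 1, 2, 3 and 5 and female SIRT6-tg replicates 4, 5 and 6. For Lag3, Icos, Cd28 and Cd80 the difference was not called (adjusted p = 0.403, 0.383, 0.0910 and 0.318). Cd28 was called lower in males without the 7 libraries (adjusted p = 0.0351), and without male SIRT6-tg replicate 2 or female SIRT6-tg replicate 1 or 6 (adjusted p 0.0378 to 0.0492).

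Among WT mice, 7 members were higher in males than in females, where 6.66% of all genes were called higher. The log2 difference was 2.69 ± 0.47 SE for Tigit, 2.39 ± 0.45 SE for Pdcd1, 2.13 ± 0.32 SE for Lag3, 2.11 ± 0.48 SE for Ctla4, 1.05 ± 0.26 SE for Cd274, 1.01 ± 0.28 SE for Havcr2 and 0.65 ± 0.18 SE for Cd86, with adjusted p from 2.49e-05 to 0.0153. For Tigit every male WT liver was above every female WT liver, a pattern of 1.33% of all genes. The Havcr2 call was lost without male WT replicate 4 (adjusted p = 0.0554) or without the 7 libraries (adjusted p = 0.0686), and the Cd86 call without male WT replicate 7 (adjusted p = 0.0520). Icos, Cd28 and Cd80 were not called (0.39, 0.70 and 0.43). This comparison uses the same male WT livers as the male genotype comparison, so the values are not independent of each other.

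Among SIRT6-tg mice the order of the sexes was different by gene. Cd274, Havcr2 and Cd86 were lower in males (log2 difference −1.64 ± 0.28 SE, −1.44 ± 0.35 SE and −0.95 ± 0.19 SE, adjusted p = 9.57e-05, 0.00354 and 5.67e-04), where 10.2% of all genes were called lower. Lag3 was higher in males (1.36 ± 0.35 SE, adjusted p = 0.00551), where 12.9% were called higher. For the other 6 members the sexes were not told apart.

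Male WT livers had the highest mean of every member. For 8 members the order was then female WT, female SIRT6-tg and male SIRT6-tg, and Ctla4 had the female groups in the other order. Lag3 was the exception, since male SIRT6-tg livers (42.1 ± 13.5 normalized counts) stood above female WT (28.3 ± 14.7) and female SIRT6-tg livers (16.6 ± 7.93). The female groups, next to each other in the order, were not called apart for any member, and male and female SIRT6-tg livers were called apart for Cd274, Havcr2, Cd86 and Lag3.

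Per kilobase of exon, which allows genes to be compared, Cd274 was the highest member in male WT livers at 4.19 ± 1.65 CPM per kilobase, where CPM is the number of reads scaled by library size to a fixed total. Lag3 (2.20 ± 1.04), Cd86 (2.05 ± 0.697), Tigit (1.5 ± 0.741) and Pdcd1 (1.31 ± 0.739) followed, then Havcr2 (0.755 ± 0.317) and Icos (0.636 ± 0.229). Ctla4 (0.190 ± 0.104), Cd80 (0.178 ± 0.0829) and Cd28 (0.177 ± 0.0495) were lowest and within a SD of each other. On this scale the members lay between percentile 20.6 (Cd28) and 65.4 (Cd274) of 15513 protein-coding genes. In male SIRT6-tg livers the highest were Lag3 (0.751 ± 0.24), Cd86 (0.665 ± 0.0702) and Cd274 (0.618 ± 0.133), and Tigit had 0.0449 ± 0.10.

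Markers of the cells that carry these molecules moved with them in males, where 11.0% of all genes were called lower. The CD3 complex list (Cd3e, Cd3g, Cd3d and Cd247), used here as the T-cell reference, was lower for 4 of 4 genes (median log2 fold change −2.39, Cd3e −2.56 ± 0.27 SE, Cd3g −2.38 ± 0.27 SE, Cd3d −2.10 ± 0.31 SE), with a summed level of 143 to 535 normalized counts in male WT and 47.8 to 103 in male SIRT6-tg livers. Other T-cell markers were lower for 9 of 9, led by Cd8a (−3.67 ± 0.31 SE), Bcl11b (−2.21 ± 0.25 SE) and Cd6 (−2.40 ± 0.27 SE). The call of Tcf7 (−0.43 ± 0.15 SE) was lost without male WT replicate 2 or 7 or male SIRT6-tg replicate 1, 4 or 7 (adjusted p 0.0639 to 0.0822). Of the coreceptors, the other CD8 chain Cd8b1 had −3.53 ± 0.44 SE and Cd4 −1.20 ± 0.26 SE. Genes of the macrophage and monocyte list were lower for 8 of 8 (median −1.37, led by Ptprc, Ly6c2 and Cybb at −1.71, −1.85 and −1.54, summed level 5546 to 16165 against 4039 to 6664), and MHC class II genes for 5 of 5 (median −2.72, led by Ciita, H2-Aa and Cd74 at −3.10, −2.61 and −2.77). Ptprc in the first of these lists is a general leukocyte gene, so its fall is not particular to macrophages and monocytes. In females none of these genes was called, and the summed CD3 level was 62.1 to 221 in WT and 69.7 to 139 in SIRT6-tg livers.

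Each member was also expressed relative to marker genes of a cell type known to carry it, as its log2 level minus the mean log2 level of a reference list in the same library. The CD3 complex served for the 7 receptors, although TIM-3 and some others are not limited to T cells. The macrophage and monocyte list, which holds the general leukocyte gene Ptprc, served for Cd274, Cd80 and Cd86. Genotypes were compared by an exact two-sided permutation test within each sex (7 against 7, smallest possible p 0.000583), adjusted over 20 tests. In males the CD3 reference changed by −2.14 and the macrophage reference by −1.33. Relative to them, 3 members were still lower and 2 were higher in SIRT6-tg males. The 2 higher ones, Icos and Lag3, had themselves fallen in males (log2 fold change −0.69 and −1.56), but by less than the CD3 reference. On this measure a gene that did not change also comes out higher, because its reference fell. The share of all genes that would pass this test was not computed.

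The relative log2 difference, SIRT6-tg minus WT, was −1.58 for Pdcd1 (exact test, adjusted p = 0.00389), −1.57 for Tigit (exact test, adjusted p = 0.00466) and −1.32 for Cd274 (exact test, adjusted p = 0.00389). All 7 SIRT6-tg males were below every WT male for Pdcd1 and Cd274, and 6 of 7 for Tigit. Icos (1.54, exact test, adjusted p = 0.00389) and Lag3 (0.73, exact test, adjusted p = 0.00466) were higher, and 7 and 6 of the 7 transgenic males stood above all WT males. The remaining log2 differences did not pass, at −0.64 for Havcr2, −0.064 for Ctla4, 0.54 for Cd28, 0.33 for Cd80 and −0.20 for Cd86. In females no member passed, and the lowest p was that of Icos (0.44, exact p = 0.0420, adjusted p = 0.140).

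These relative values depended on the constant added before taking logarithms and on the reference. With a prior count of 0.5 in place of 2 the Tigit difference was −2.97, the Pdcd1 difference −2.18 and the Ctla4 difference −1.07, the last still not passing. Against the MHC class II genes Cd274 differed by −0.018 (exact test, adjusted p = 0.952), while Cd80 (1.64) and Cd86 (1.10) were higher (exact test, adjusted p = 0.00583 each). Against the CD8 chains, a reference chosen after the data were seen, Pdcd1 differed by −0.30 and Tigit by −0.29 (exact test, adjusted p = 0.301 and 0.429). On that reference Cd28 (1.82), Ctla4 (1.22), Icos (2.82) and Lag3 (2.01) were higher (exact test, adjusted p = 0.00291, 0.0117, 0.00291 and 0.00291). Whether the members changed within T cells was not tested.

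**Figure D3:**
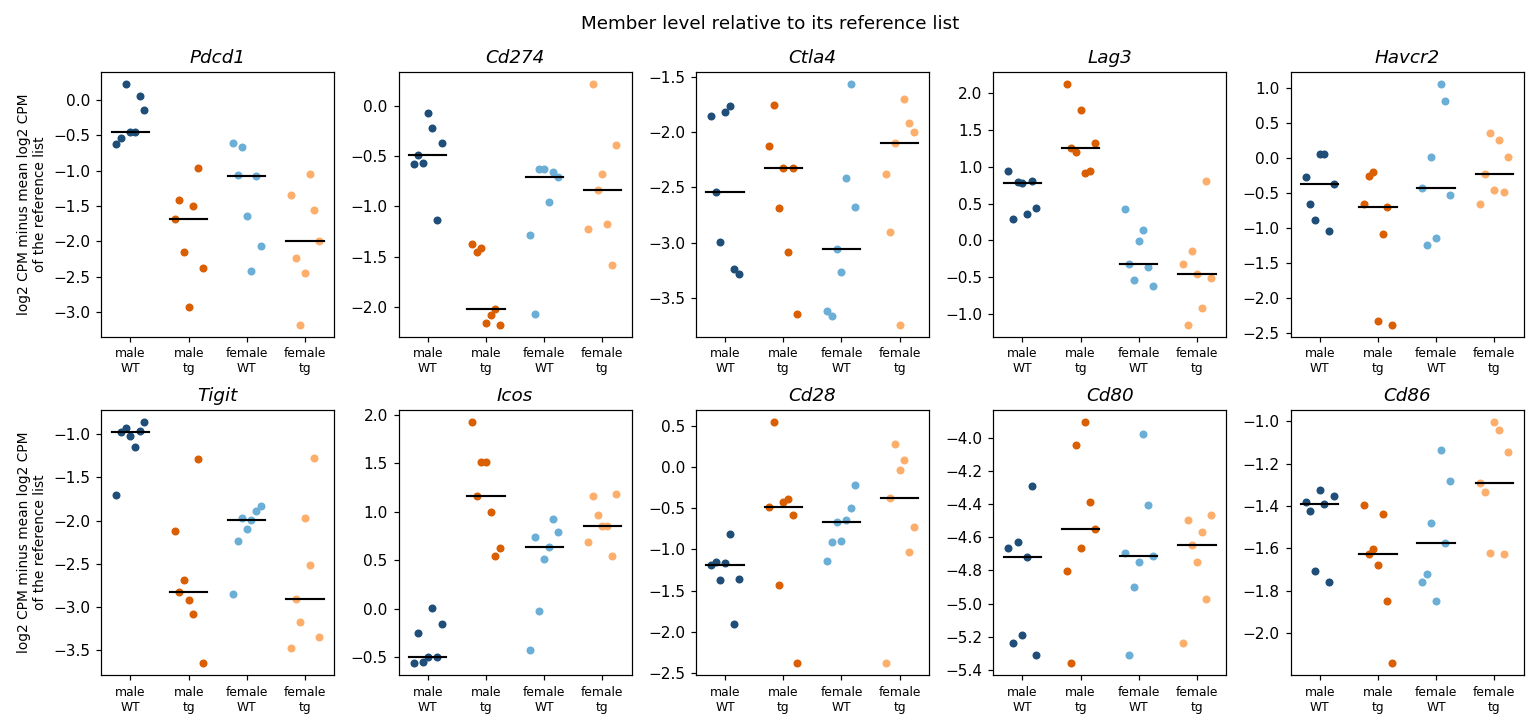
Log2 CPM of each member minus the mean log2 CPM of its reference list in the same library (vertical axis, log2 units, scaled per gene), by group, with 1 point per liver and a line at the median. The reference is the CD3 complex, except for Cd274, Cd80 and Cd86, which use the macrophage and monocyte list, Ptprc included. All 7 male SIRT6-tg points lie below the male WT points for Pdcd1 and Cd274 and above them for Icos.

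The binding partners and relatives of the members were described from a list of 20 genes. Of these, 10 were lower and 3 higher in male SIRT6-tg livers (13 and 0 with library size alone as the scaling), where 11.0% of all genes were called lower and 9.68% higher. None was called in females. Pdcd1lg2, the other ligand of PD-1, was lower (−2.45 ± 0.54 SE, adjusted p = 0.00113), from 4 to 10.1 (median 6.58) normalized counts in male WT to 0 to 2.18 (median 0.996) in male SIRT6-tg livers. Icosl, the ligand of ICOS, was lower (−1.46 ± 0.23 SE, adjusted p = 2.55e-05), and its ranges did not overlap (48.1 to 83.3 (median 64.5) against 14.1 to 41.7 (median 19.7)). Btla, an inhibitory receptor for the TNF receptor family member Tnfrsf14, was lower (−1.56 ± 0.24 SE, adjusted p = 1.77e-05), and so were Cd200r1 (−1.54 ± 0.28 SE), Pvrig (−1.54 ± 0.46 SE), Cd96 (−1.44 ± 0.41 SE), Vtcn1 (−0.98 ± 0.35 SE), Vsir (−0.85 ± 0.13 SE), Cd200 (−0.78 ± 0.23 SE) and Cd276 (−0.71 ± 0.20 SE). The Vtcn1 call was lost without male WT replicate 1, 3, 4 or 6 or any of male SIRT6-tg replicates 2 to 7 (adjusted p 0.0523 to 0.0857).

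Several ligands that hepatocytes can make behaved otherwise. Nectin3, a ligand of TIGIT-family receptors, rose by 0.42 ± 0.083 SE (adjusted p = 3.93e-04), from 1028 to 1395 (median 1276) to 1369 to 1904 (median 1633) normalized counts, and Ceacam1 (0.47 ± 0.16 SE, adjusted p = 0.0305) and Lgals9 (0.28 ± 0.092 SE, adjusted p = 0.0286), both described as TIM-3 ligands, rose as well under TMM scaling, although Lgals9 turned below 0 with library size alone. With library size alone as the scaling these 3 rises were no longer called (log2 fold change 0.14, 0.20 and −0.00862). With RLE size factors Lgals9 and Ceacam1 were not called either (adjusted p = 0.0710 and 0.0517), nor was Lgals9 without the 7 libraries that stood apart (adjusted p = 0.133). The Lgals9 call was lost without male WT replicate 1, 3, 4 or 5 or male SIRT6-tg replicate 6 or 7 (adjusted p 0.0548 to 0.103), and the Ceacam1 call without male WT replicate 1, 3, 4, 6 or 7 or male SIRT6-tg replicate 2, 3 or 6 (adjusted p 0.05002 to 0.0849). Fgl1, a hepatocyte ligand of LAG-3, and Clec4g, a LAG-3 ligand of sinusoidal endothelium, were not called (−0.072 ± 0.24 SE and −0.00161 ± 0.20 SE). Nor were the TIGIT ligands Pvr (−0.21 ± 0.12 SE) and Nectin2 (0.18 ± 0.18 SE), or Tnfrsf14 (−0.78 ± 0.29 SE), Cd160 (−0.68 ± 0.27 SE) and Cd226 (−0.71 ± 0.38 SE).

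**Figure D4:**
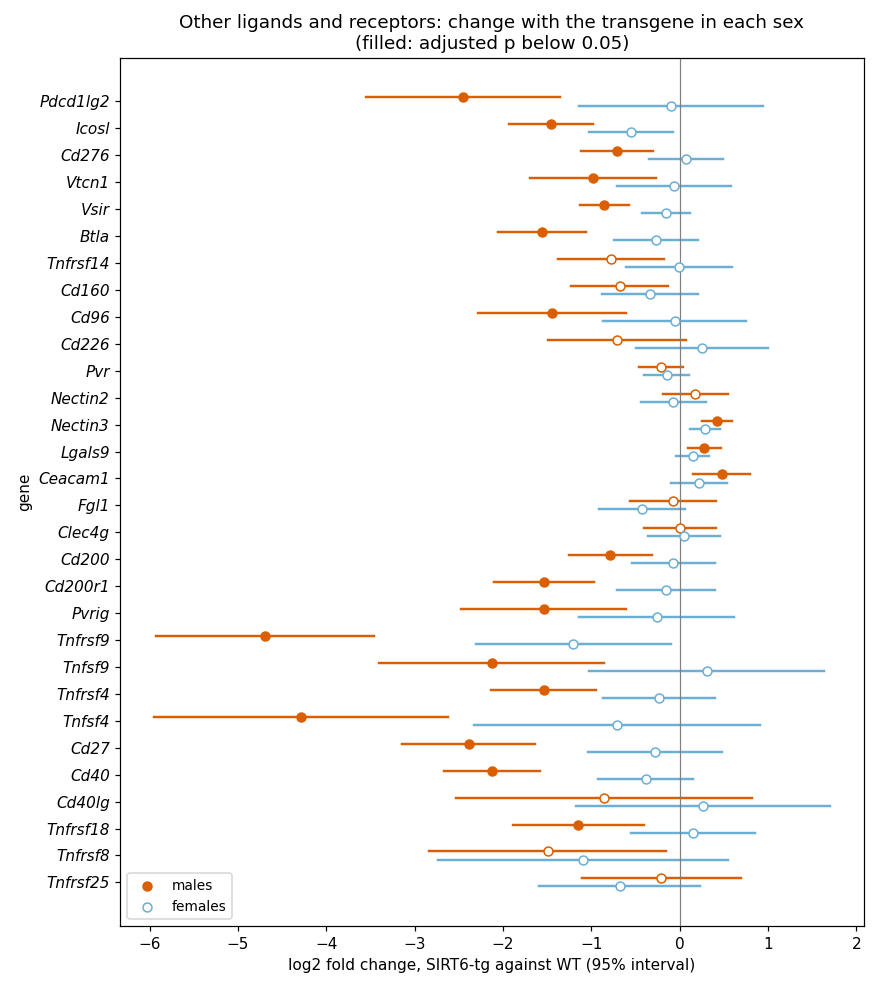
Fitted log2 fold change of SIRT6-tg against WT (horizontal axis) for 20 binding partners and relatives of the members and for the 10 tested costimulatory genes of the TNF families, with orange for males, blue for females, lines for the 95% interval and filled points for an adjusted p below 0.05. Most filled male points lie below 0, down to −4.70 for Tnfrsf9, and those of Nectin3, Lgals9 and Ceacam1 lie above 0 under the TMM scaling drawn here, though with library size alone none of the 3 was called and Lgals9 was below 0.

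Costimulatory genes of the TNF and TNF receptor families were described from a list of 12. Of these, 10 were abundant enough to test (Cd70 and Tnfsf18 were not), and 7 were lower in males, where 11.0% of all genes were called lower. Cd40lg (−0.86 ± 0.82 SE), Tnfrsf8 (−1.49 ± 0.66 SE) and Tnfrsf25 (−0.21 ± 0.44 SE) were not called. The call of Tnfrsf18, the receptor GITR, was lost without male WT replicate 7 or male SIRT6-tg replicate 4, 5 or 6 (adjusted p 0.0513 to 0.0605). Tnfrsf9, the activation receptor 4-1BB, lay between 10.2 and 52.6 (median 29.5) normalized counts in male WT and 0 to 2.19 (median 0.996) in male SIRT6-tg livers, without overlap (−4.70 ± 0.60 SE, adjusted p = 1.03e-06). Cd40 (−2.12 ± 0.26 SE), the receptor through which T cells license antigen-presenting cells, and Cd27 (−2.39 ± 0.37 SE) were lower without overlap. Tnfsf4, the ligand of OX40, had a single read in the 7 male SIRT6-tg livers and 44 in male WT livers, and its groups overlapped.

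Downstream of the receptors, 14 of 20 T-cell signalling genes were lower in males (11.0% of all genes), with a median log2 fold change of −1.49. Among them were the lipid kinase subunit Pik3cd (−1.49 ± 0.17 SE) and the kinase Lck (−1.89 ± 0.23 SE), the latter acting at the T-cell receptor and CD28. Ptpn6 (−0.36 ± 0.11 SE) and Ptpn11 (0.049 ± 0.13 SE), the phosphatases recruited by PD-1 and related receptors, had small log2 fold changes, and Ptpn6 alone was called (adjusted p = 0.0191). The other 5 genes of the list that were not called were Zap70, a kinase of the T-cell receptor (0.68 ± 0.29 SE, 272 to 432 (median 373) normalized counts in male WT and 297 to 992 (median 577) in male SIRT6-tg livers), Themis (0.029 ± 0.31 SE), Malt1 (−0.24 ± 0.19 SE), Nfatc1 (−0.17 ± 0.17 SE) and Csk (0.078 ± 0.076 SE). The call of Prkcq was lost without male WT replicate 4 or male SIRT6-tg replicate 1 (adjusted p 0.0561 and 0.0550). Of 12 transcription factors linked to T-cell activation and exhaustion 9 were lower, led by Eomes (−3.99 ± 0.54 SE), Prdm1 (−1.88 ± 0.25 SE) and Nr4a3 (−2.53 ± 0.34 SE), whereas Tox, Nr4a1 and Bhlhe40 were not called (−0.26, −1.77 and 0.19). Of 5 regulatory T-cell markers 3 were lower, namely Ikzf2 (−1.77 ± 0.24 SE), Il10 (−3.14 ± 0.60 SE) and Foxp3 (−1.64 ± 0.59 SE, adjusted p = 0.0481), and Foxp3 rested on 53 and 13 reads. Its call was lost without any of 15 libraries (adjusted p 0.0516 to 0.121), namely male WT replicates 2, 3, 4 and 7, male SIRT6-tg replicates 1 to 5 and 7, female WT replicates 3 and 7 and female SIRT6-tg replicates 2, 3 and 5.

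Genes of the interferon-γ pathway, which induces PD-L1, were lower for 7 of 10 in males, beside 11.0% of all genes. Socs1 (−2.62 ± 0.26 SE), Cxcl10 (−2.74 ± 0.28 SE) and Cxcl9 (−2.79 ± 0.31 SE) had the lowest adjusted p, and Ifng itself lay between 4.78 and 48.1 (median 14.1) normalized counts in male WT and between 0.996 and 4.59 (median 2.21) in male SIRT6-tg livers (−2.82 ± 0.50 SE, adjusted p = 1.01e-04). The kinases Jak1 (−0.060 ± 0.082 SE) and Jak2 (−0.29 ± 0.12 SE) and the receptor subunit Ifngr2 (−0.26 ± 0.12 SE) were not called. None of the 10 was called in females.

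Other cells of the liver were checked with marker lists in males, where 11.0% of all genes were called lower and 9.68% higher. Kupffer cell markers were lower for 6 of 6, led by Marco (−3.29 ± 0.43 SE), Timd4 (−1.19 ± 0.22 SE) and Adgre1 (−1.28 ± 0.26 SE), and the call of Clec4f (−0.55 ± 0.20 SE) was lost without male WT replicate 4, 6 or 7 or any of male SIRT6-tg replicates 1 to 5 (adjusted p 0.0586 to 0.1002). Dendritic cell markers were lower for 5 of 8, led by Itgax (−3.09 ± 0.26 SE), Flt3 (−1.98 ± 0.24 SE) and Clec9a (−1.24 ± 0.15 SE). B-cell markers were lower for 4 of 6, among them Cd22 (−1.36 ± 0.18 SE) and Cd79a (−0.82 ± 0.24 SE). NK and innate lymphoid cell markers were lower for 2 of 6, Klrk1 (−1.15 ± 0.22 SE) and Klre1 (−1.44 ± 0.35 SE), while Klri2 was not called (−1.14 ± 0.46 SE). The summed level of this list was 79.8 to 217 normalized counts in male WT and 55.7 to 103 in male SIRT6-tg livers. Ncr1, a marker of NK and some other innate lymphoid cells, was not called (−0.45 ± 0.53 SE). Endothelial markers were lower for 1 of 6 (Pecam1, −0.37 ± 0.14 SE, adjusted p = 0.0496), a call lost without male WT replicate 2, 4, 6 or 7, male SIRT6-tg replicate 1, 2, 3, 4 or 7 or female WT replicate 4 (adjusted p 0.0538 to 0.105), and Lyve1 (−0.80 ± 0.35 SE) and Stab2 (−0.18 ± 0.13 SE) were not called. Hepatocyte markers were higher for 3 of 6, Fgb (0.40 ± 0.11 SE), Serpina1a (0.39 ± 0.12 SE) and Alb (0.35 ± 0.11 SE), of which none was called with library size alone. Male WT replicate 7 removed each of these 3 calls, as did male WT replicate 4 and male SIRT6-tg replicate 4 for Serpina1a and Alb, male SIRT6-tg replicate 7 for Serpina1a and male WT replicate 3 for Alb (adjusted p 0.0513 to 0.0856). The share of these shifts in the members' changes was not tested.

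The 7 male WT livers differed among themselves in the same members. Replicate 5 was among the 2 lowest of the group for all 10 members and the lowest for 6, and replicate 1 was among the 2 lowest for 7. Replicate 6 was the highest for 5 members and replicate 4 for 4. Cd3e read 28 normalized counts in replicate 5 and 108 in replicate 4.

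Lag3 was the member that moved most with the libraries that stood apart. Its deviation from the group mean had a Pearson r of 0.78 with the component score over 28 libraries, beside 0.51 for Pdcd1 and −0.31 to 0.30 for the other 8 members, given as a description without a test. In female WT livers Lag3 lay between 28.6 and 48.9 normalized counts in the 3 libraries that stood apart and between 15.6 and 21.4 in the other 4, and in female SIRT6-tg livers between 26.5 and 28.2 in 2 and between 7.63 and 17.4 in 5. Over 9819 genes the component's weights had a correlation of −0.61 with log2 exon length. Without the 7 libraries Lag3 was still lower in male SIRT6-tg livers (log2 fold change −1.56, adjusted p = 4.52e-05).

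**Figure D5:**
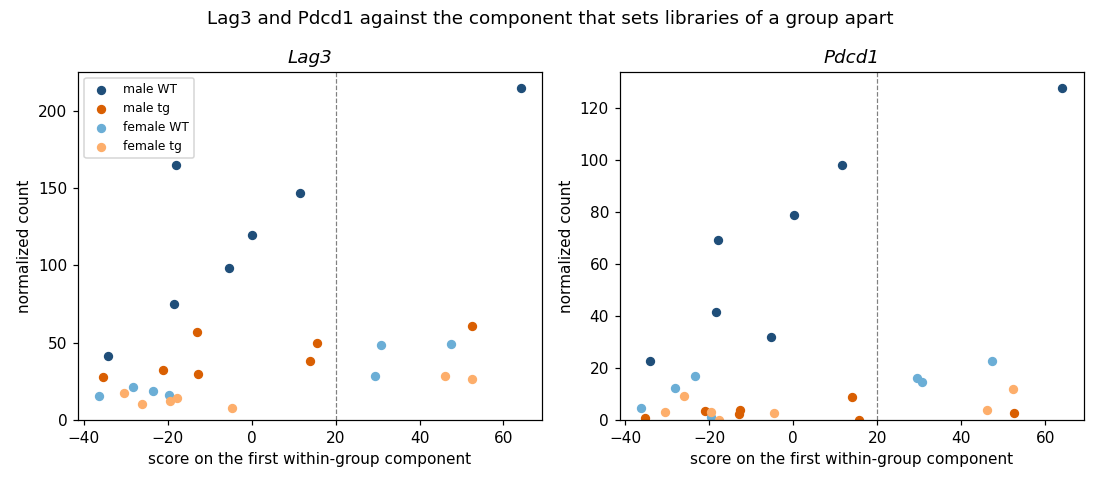
Normalized counts of Lag3 and Pdcd1 (vertical axes, from 0) against the score of each library on the first within-group component (horizontal axis, arbitrary units), with 1 point per liver coloured by group and a dashed line at a score of 20. The 7 libraries right of the line have scores of 29.4 or more, and within each group they hold the highest Lag3 values.

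Genes whose deviations from the group means ran most alike those of a member were named by Pearson r of log2 CPM over the 28 libraries, among 14042 genes, as descriptions. For Pdcd1 they were Runx3 (r = 0.89), a transcription factor of CD8+ T cells, and the chemokine genes Ccl5 (0.84) and Ccl4 (0.80). For Cd274 they were the interferon-inducible Gbp5 (0.84), Gbp4 (0.84) and Samhd1 (0.84). For Cd86 they were the leukocyte genes Cd53, Itgb2 and Plek (each 0.87), and for Icos Cyth4 (0.85), Pla2g4a (0.83) and Klra2 (0.82). Lag3 ran most alike Marcksl1 (0.89), Tusc3 (0.88) and Cnn2 (0.87), genes that were not on any T-cell list. Havcr2 ran most alike Kirrel (0.72), the dendritic cell receptor gene Clec9a (0.70) and Slc16a9 (0.69). The highest r was 0.75 for Tigit (Dnajb13), 0.78 for Cd80 (Gpr137b-ps) and 0.73 for Cd28 (Pde1b), and Ctla4 was too low to be compared. Between members the highest r were 0.64 for Icos and Cd86 and 0.59 for Pdcd1 and Tigit. Tigit had a mean of 36.5 normalized counts in male WT livers and of 5.55 or less in each other group. It had no read in 5 of the 7 transgenic males. The r values of Tigit, including that with Pdcd1, therefore rest largely on libraries with few or no reads of it.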

How the data were processed

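Liver RNA of 28 mice was sequenced by the study as single-end reads, from 1 µg of total RNA per library (NEBNext Ultra kit). The deposited values are raw counts of uniquely mapped reads per gene, which the authors made with STAR 2.5.0a on mm10 and HTSeq-count with a Gencode mouse annotation. The strand setting is not given in the sources used here, so overlapping and antisense genes can share reads. Totals of 18758863 to 35393069 reads set the precision, and limits on counts of 0 cover counting error only. Groups and replicate numbers came from the sample titles, and each library is a separate mouse. Within each group no 2 libraries agreed within sampling noise, and pairs across groups were not compared in this way. The labels give no batch, date or litter, and the sample numbers in the column headers run in a separate block for each group. An effect of handling that follows those blocks cannot be told apart from group.

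Genes with a mean normalized count of at least 0.5 (21583 of 49585) were fitted in 1 model of 4 groups by edgeR 4.0.16 (R 4.3.3, TMM, robust quasi-likelihood F-test), and p-values were adjusted by Benjamini-Hochberg over all of them. Contrasts were genotype in each sex, the interaction, and sex within each genotype. Relative levels used log2 CPM (prior count 2) and exact permutation of 7 against 7. CPM per kilobase used exon lengths of the GENCODE annotation of GRCm38, and promoter windows came from RefSeq. The test scripts were tested on simulated counts.

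The members and gene lists were chosen with earlier results of these data known. The text names all members and binding partners, the 3 genes of each other list with the lowest adjusted p in males, and up to 3 genes most alike each member over the libraries, apart from a few items that are not reported here. Cd4, Cd8b1, Tnfsf4, Ptpn6, Ptpn11, Zap70, Themis, Malt1, Nfatc1, Csk, Prkcq, Tcf7, Clec4f, Cd40lg, Tnfrsf8, Tnfrsf18, Tnfrsf25, Tox, Nr4a1, Bhlhe40, Jak1, Jak2, Ifngr2, Ifng and Ncr1 were named after their values were seen. Cd247 is named only as a gene of its list. Alternatives were RLE, upper-quartile and library-size scaling, filterByExpr, a count above 0, DESeq2 1.42.0, each sex fitted alone, a replicate block, leaving out each library and, for relative levels, another prior count and other reference lists. Leaving out the 7 libraries that stood apart, their component score as a covariate and the CD8 reference were added after the data were seen.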

Additional observations from a re-analysis of the deposited data

Results flagged for a closer look

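In 4 of the 40 combinations of member and group, 1 liver lay far from the other 6, by the gap to the nearest liver as a share of the group's range. For normally distributed values chance alone would give this in about 1 in 20 groups of 7. That rate was not checked for counts such as these, many of them low, so 4 of 40 cannot be judged against it. Each of the 4 was the highest liver of its group. Ctla4 read 25.7 normalized counts in male WT replicate 4, next to 12.5 in the nearest liver (share 0.714), and 8.14 in female WT replicate 6, next to 3.33 (share 0.676). Tigit read 6.58 in male SIRT6-tg replicate 6, next to 1.09 (share 0.834), and Cd80 read 34.7 in male WT replicate 6, next to 18.3 (share 0.667). Male WT replicate 6 is 1 of the 7 libraries that stood apart.

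The genotype effect differed between the sexes by the edgeR interaction term for 6 members, each lower in males, where 3.84% of all genes were called in that direction. The calls of Pdcd1, Ctla4 and Tigit were lost without the 7 libraries that stood apart, and those of Pdcd1 and Tigit also without certain single libraries. The log2 fold change in males minus that in females was −2.97 for Pdcd1, −2.69 for Cd274, −3.47 for Ctla4, −2.45 for Havcr2, −3.48 for Tigit and −1.60 for Cd86. Sirt6 read 7461 ± 1467 normalized counts in male SIRT6-tg and 802 ± 331 in female SIRT6-tg livers (mean ± SD, n = 7 each). The part of this difference in the sex difference of the members was not tested.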

How the results depend on the processing

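The number of members called stayed between 9 and 10 in males, at 0 in females, between 4 and 7 for the interaction, between 6 and 7 for sex in WT and at 4 for sex in SIRT6-tg livers over all alternatives, each library left out included. With filterByExpr Ctla4 was not tested. Icos lost its male call when every gene with a read was tested (adjusted p = 0.0566), as did the interaction calls of Pdcd1 and Tigit (0.0558 and 0.0513), a setting with more genes to adjust over. The Cd28 interaction was called with library size alone, DESeq2 and the component score as a covariate (adjusted p = 0.0275, 0.0268 and 0.0327), and the cause was not tested. The last of these p-values does not account for the score having been taken from the same libraries.

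Female changes near 0 turned above 0 in some settings without being called. These were Ctla4 under the replicate block (0.088), and Cd274 (0.00628), Icos (0.16) and Cd28 (0.13) without the 7 libraries that stood apart. With 1 library left out the female log2 fold change ran from −0.29 to 0.065 for Cd274, −0.28 to 0.56 for Ctla4, −0.21 to 0.049 for Icos and −0.13 to 0.043 for Cd86. In males, Lgals9 was −0.00862 with library size alone.

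Of the relative levels in males, Ctla4 ran from −0.20 to 0.12 with 1 library left out and was 0.035 with library size alone. Cd86 was 1.10 against MHC class II genes, and against the CD8 chains Ctla4 was 1.22 and Havcr2 0.64. Against other T-cell markers Lag3 lost its call (0.61, adjusted p = 0.123) and Havcr2 gained one (−0.76, exact permutation test, adjusted p = 0.0389).

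The replicate numbers share no animal, and same-numbered libraries of 2 groups correlated at −0.28 to 0.27, with at most 3 of 7 pairs over 0.1 and at most 1 library that correlated best with its own number. With the number as a block the members called were 9, 0, 6, 7 and 4 in the comparisons above (Icos in males had an adjusted p of 0.0603). For the relative levels in males the block gave 0 members in place of 5, with the differences of the 5 as before. All 5 sat at the smallest p of the exact sign-flip test over 7 pairs (0.0156, adjusted 0.0625), so they could not pass and this test says nothing of their stability.

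Scaling set the balance of all called genes. Library size alone moved the median male log2 fold change of all genes from 0.056 to −0.22, and that of the members from −2.20 to −2.49. The share of called genes that were higher was 46.8% in males with TMM, 35.7% with RLE, 26.2% with upper-quartile factors and 4.89% with library size alone. The interaction had 23.8%, 10.8% and 1.4% higher with TMM, upper-quartile factors and library size alone, sex in WT 53.8%, 51.7% and 86.8%, and sex in SIRT6-tg livers 55.9%, 39.2% and 39%. Genes called rose from 1088 to 1863 for the interaction and from 2669 to 4212 for sex in WT with library size alone, and the latter to 5124 without the 7 libraries. With the component score as a covariate they were 7338 in males (4466 without it), 47 in females (6), 3777 for the interaction, 5474 for sex in WT and 7760 for sex in SIRT6-tg livers (4987). That score was taken from the same libraries after their group means were subtracted, so it takes up remaining variation by construction. The p-values do not account for this, and the larger numbers of calls say nothing further. Female calls were 44 with DESeq2, 2 with each sex fitted alone and 3 to 16 with 1 library left out. The regulatory T-cell list had 1 called gene in place of 3 with filterByExpr, and the endothelial list between 0 and 3. Depth limits Ctla4 and Tigit most, which rest on 6 and 7 reads over the 7 male SIRT6-tg livers.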
